A study of Homo sapiens with 8 samples.

Results

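Hypoxia-response genes outside glycolysis were followed in MDA-MB-157 cells, an established human breast cancer line labelled negative for the estrogen receptor. The set held 36 genes out of the 21059 genes compared, and all 36 were found by their symbol in the deposited table, each with 1 identifier. They were taken as a list of subunits of the hypoxia-inducible factors (HIF), regulators of HIF and HIF targets that are not glycolytic enzymes. The rule names roles and no measured value, but the members were chosen with earlier results of these data known. Cells in T25 flasks were first conditioned in low glucose and then kept for 48 hours in serum-free medium, with 4 libraries from the low glucose group at 5 mM and 4 from the high glucose group at 25 mM, sequenced on an Illumina HiSeq instrument. The comparison asks which transcripts differ when glucose is raised from a physiological to a hyperglycemic level. No genetic change or drug separated the groups, and the labels give neither an oxygen level nor whether an osmotic control such as mannitol was added to the low glucose medium. All libraries came from 1 cell line, so the values describe that line.

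HIF is a transcription factor made of an oxygen-regulated alpha subunit (HIF1A or EPAS1, the latter also called HIF-2 alpha) and a partner, the beta subunit (ARNT or ARNT2). When oxygen is available, prolyl hydroxylases of the EGLN family mark the alpha subunit, VHL binds the mark and the subunit is degraded, while HIF1AN hydroxylates a further residue and blocks the binding of coactivators. Since this control acts on the protein, the mRNA of the alpha subunits is no measure of HIF activity, and the target transcripts, which in breast cancer include secreted, metabolic and survival genes, are read separately from it.

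HIF binds DNA at a short core with the letters ACGTG or GCGTG. Promoter sequences of 6 members are shown to let this core be seen in genes that rose, fell or were not detected. Sequences came from RefSeq on GRCh38.p14, where 29 of the 36 members had an entry, and each is 120 bases taken from the 250 bases before the outermost listed start of the gene. ARNT2, VHL, VEGFA, STC1, BNIP3L, HILPDA and NDRG1 had none. Each line is written 5′ to 3′ on the strand of the gene, and capitals mark every ACGTG or GCGTG on either strand, so that CACGT is ACGTG on the opposite strand and CACGTG is a palindrome that holds both, the E-box, which other factors such as MYC and BHLHE40 also bind.
ANGPTL4, chr19:8363905-8364024, plus strand: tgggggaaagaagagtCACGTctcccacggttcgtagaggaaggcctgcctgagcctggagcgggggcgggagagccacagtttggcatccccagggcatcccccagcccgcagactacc
BHLHE40, chr3:4979238-4979357, plus strand: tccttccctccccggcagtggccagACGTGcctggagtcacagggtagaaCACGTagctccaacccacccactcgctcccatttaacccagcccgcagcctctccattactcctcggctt
AK4, chr1:65147432-65147551, plus strand: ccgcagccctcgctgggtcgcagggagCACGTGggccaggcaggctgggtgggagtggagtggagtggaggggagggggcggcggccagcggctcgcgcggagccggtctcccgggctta
EGLN1, chr1:231422288-231422407, minus strand: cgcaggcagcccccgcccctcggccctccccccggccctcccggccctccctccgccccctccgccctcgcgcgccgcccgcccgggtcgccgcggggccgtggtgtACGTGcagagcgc
PPP1R3C, chr10:91633072-91633191, minus strand: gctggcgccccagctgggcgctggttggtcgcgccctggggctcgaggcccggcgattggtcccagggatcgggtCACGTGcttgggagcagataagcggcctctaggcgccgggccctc
CA9, chr9:35673808-35673927, plus strand: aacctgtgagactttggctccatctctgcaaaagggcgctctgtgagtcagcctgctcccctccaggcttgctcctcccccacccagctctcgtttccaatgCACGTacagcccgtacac

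Among the 29 members with a RefSeq promoter, 23 (79.3%) held ACGTG or GCGTG on either strand within these 250 bases, against 43.1% of all 27305 RefSeq promoters and 57.6% of the 10448 promoters of genes with a mean of at least 1 count per 1000000 reads (CPM). ACGTG was present in 16 members (55.2%), against 18.6% of all promoters and 23.3% of promoters of genes at that level. The palindrome CACGTG was present in 10 members (34.5%), against 6.5% of all promoters and 8.9% of those of expressed genes. The core, as ACGTG or GCGTG, was found in 12 of 14 promoters of members that rose and in 3 of 5 of members that fell. It was found in 8 of 10 of members that did not pass the test. ACGTG was found in 8 of 14 promoters of members that rose, in 2 of 5 of members that fell and in 6 of 10 of members that did not pass the test. Since the members were listed as HIF subunits, regulators and targets, these shares describe the list and test nothing. These letters describe the promoter sequence and say nothing of whether a factor was bound, and many HIF sites lie outside such a window.

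Values are CPM scaled by the authors with TMM factors, which correct for a few abundant transcripts taking up reads. Changes are log2 differences, high minus low glucose, of log2(CPM + 1) with their standard error, which understates the change of transcripts near 1 CPM, and adjusted p-values are from limma over all 21059 genes with the Benjamini-Hochberg method and a threshold of 0.05. The libraries held 9722000 to 12483000 reads in the table, and 3 reads corresponded to 0.212 to 0.267 CPM, taken as the floor of detection. The labels give 4 replicates per group without saying that they came from separate experiments, so p-values measure the spread between these libraries, which may be technical. Each library is the RNA of a whole flask, so fewer cells that express a transcript and less of it per cell cannot be told apart. The line's label held for its receptor: ESR1, the estrogen receptor gene, was under 3 reads in all 8 libraries, and VIM, a mesenchymal filament gene, was abundant in all of them. Of the 7 genes checked for the identity of the line, 4 passed the test. VIM fell from a mean of 4091 to 2967 CPM and ERBB2, a growth factor receptor gene, from 63.6 to 39.2 CPM. CDH2, N-cadherin, rose from 55.2 to 75.5 CPM and EPCAM, an epithelial adhesion gene, from 4.50 to 7.0 CPM. PGR, the progesterone receptor gene, was detected, with means of 4.76 and 5.35 CPM at low and high glucose. CDH1, E-cadherin, had means of 0.949 and 0.961 CPM, and neither PGR nor CDH1 passed the test. In the list of markers of other cell types, 6 of 8 genes were in the table and 3 passed the test. The summed level of the 6 was 12.3 to 16.8 CPM at low and 13.8 to 17.6 CPM at high glucose. Most of this sum was CD68, which had means of 11.1 and 12.1 CPM and did not pass the test. Of the 3 that passed, PECAM1 rose (change 0.63), and VWF (change -0.95) and CDH5 (change -0.32) fell. CDH5 was under 3 reads in 5 libraries, and PTPRC, the leukocyte marker, was under 3 reads throughout. Of 11 proliferation genes, 10 rose, where 22.0% of all genes and 29.5% of genes with a mean of at least 1 CPM rose. The summed level of the 11 was 662.7 to 702.8 CPM at low and 1013 to 1056 CPM at high glucose. By BrdU incorporation, a measure of DNA synthesis and not of transcripts, the study reported that high glucose did not enhance proliferation in lines that included MDA-MB-157. The part of these marker changes in the members' changes was not tested. In high glucose replicate 1 long transcripts read low, with a Spearman correlation across genes of -0.65 between transcript length and the deviation of the library from the others of its group, against 0.25 to 0.47 in the other high glucose libraries and -0.13 to 0.06 at low glucose.

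At high glucose 18 of the 36 members rose (50%) and 6 fell (16.7%), against 22.0% of all genes that rose and 24.8% that fell. In all, 24 members (66.7%) and 46.8% of all genes passed the test, so that passing it is common here. Of the members, 35 had a mean of at least 1 CPM, and among the 14372 genes at that level 29.5% rose and 32.6% fell, 62.1% in all. The share of members that passed was thus near that of expressed genes, and the split between the directions was toward higher values. Since the members were chosen with earlier results of these data known, these shares describe the list and test nothing. The libraries of both groups did not overlap for 23 members (63.9%), with 17 above and 6 below at high glucose, against 20.9% and 23.6% of all genes (44.5% together) and 28.4% and 31.6% of genes with a mean of at least 1 CPM (60.0% together). The median change of the members was 0.13, against -0.01 over all genes and -0.04 over those with a mean of at least 1 CPM. ANGPTL4, ADM, RORA and NDRG1 rose by at least 1 on the log2 scale, as 2.32% of all genes and 3.32% of genes at 1 CPM or more did, and ARNT2 alone among the members fell by as much, as 2.45% and 3.58% did. With a pseudocount of 0.1 in place of 1, STC1 (1.13) and ANKRD37 (1.04) were also past 1. The 26 targets, without subunits and regulators, had a median change of 0.25, with 15 that rose and 4 that fell. The list thus held members that moved either way, and these are given by role.

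**Figure D1:**
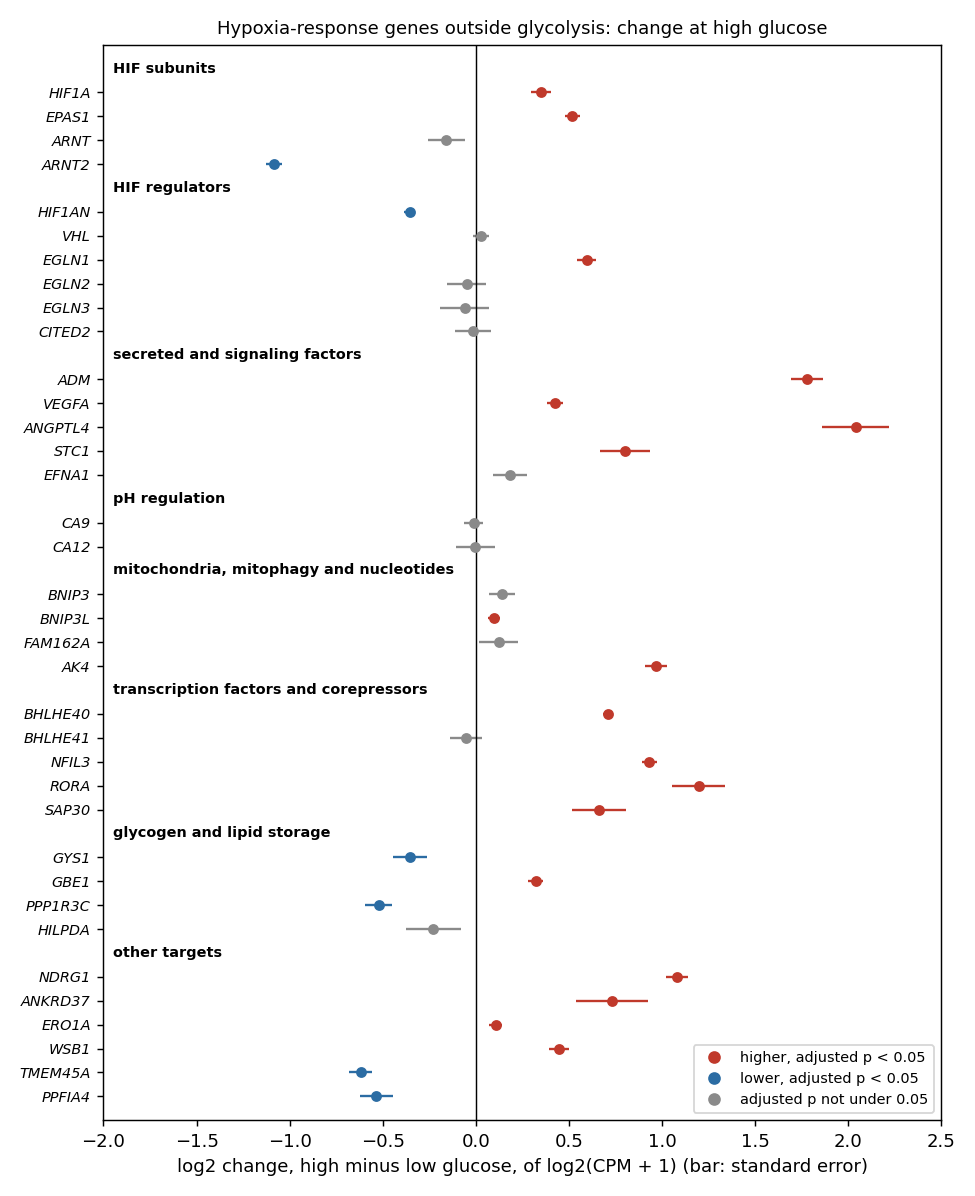
Log2 change (high minus low glucose, of log2(CPM + 1)) of each of the 36 members with its standard error, grouped by role and coloured by the test (higher, lower or not past an adjusted p of 0.05). Changes run from -1.08 for ARNT2 to 2.04 for ANGPTL4, and the secreted factors and the transcription factors hold 4 members each that rose and none that fell. Of all genes with a mean of at least 1 CPM, 29.5% rose and 32.6% fell.

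Among the subunits, both alpha subunit transcripts rose while ARNT2 fell. HIF1A was at 173, 168, 179 and 174 CPM in low glucose replicates 1 to 4 and at 201, 223, 224 and 241 CPM in high glucose replicates 1 to 4. All high glucose libraries lay above all low glucose libraries, and the high glucose libraries were the more spread. The mean went from 174 ± 4.18 to 222 ± 16.5 CPM (SD, n = 4), a change of 0.35 ± 0.05 (adjusted p = 0.00142, limma). EPAS1 was at 65.5, 64.1, 64.8 and 68.0 CPM at low glucose and at 88.0, 92.9, 97.0 and 100.4 CPM at high glucose. The groups did not overlap, and EPAS1 changed by 0.52 ± 0.04 (adjusted p = 6.9e-05, limma).

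ARNT, the main beta subunit, was at 64.4, 60.1, 62.1 and 58.1 CPM at low glucose and at 46.2, 51.8, 65.1 and 57.1 CPM at high glucose. High glucose replicate 3 was above every low glucose library and the other high glucose libraries were below all of them, so the groups overlapped, and the change of -0.16 ± 0.10 did not pass the test (adjusted p = 0.243, limma). Without high glucose replicate 3 the change was -0.24 with an adjusted p of 0.0443. ARNT2, a close relative of ARNT that is best known from neural tissue, was at 24.8, 26.3, 25.0 and 26.4 CPM at low glucose and at 11.2, 11.5, 11.1 and 12.4 CPM at high glucose. The groups lay far apart with little spread in either, and ARNT2 fell by 1.08 ± 0.04 on the log2 scale (adjusted p = 3.2e-06, limma), the largest fall among the members.

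Per kilobase of transcript, HIF1A was the most abundant subunit transcript at both glucose levels, with means of 44 and 56.3 CPM per kb at low and high glucose. EPAS1 had 12.7 and 18.3 CPM per kb, ARNT 13.0 and 11.7, and ARNT2 3.93 and 1.77. EPAS1 and ARNT overlapped at low glucose, where their levels did not differ beyond their spread, and stood apart at high glucose, with EPAS1 at 17.1 to 19.5 and ARNT at 9.82 to 13.8 CPM per kb. The sum of HIF1A and EPAS1 over the sum of ARNT and ARNT2, on this scale, was 3.24 to 3.5 in the low and 4.87 to 5.89 in the high glucose libraries. ARNT over ARNT2 was 3.04 to 3.6 at low and 5.71 to 8.09 at high glucose. Both ratios compare transcripts and not proteins.

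**Figure D2:**
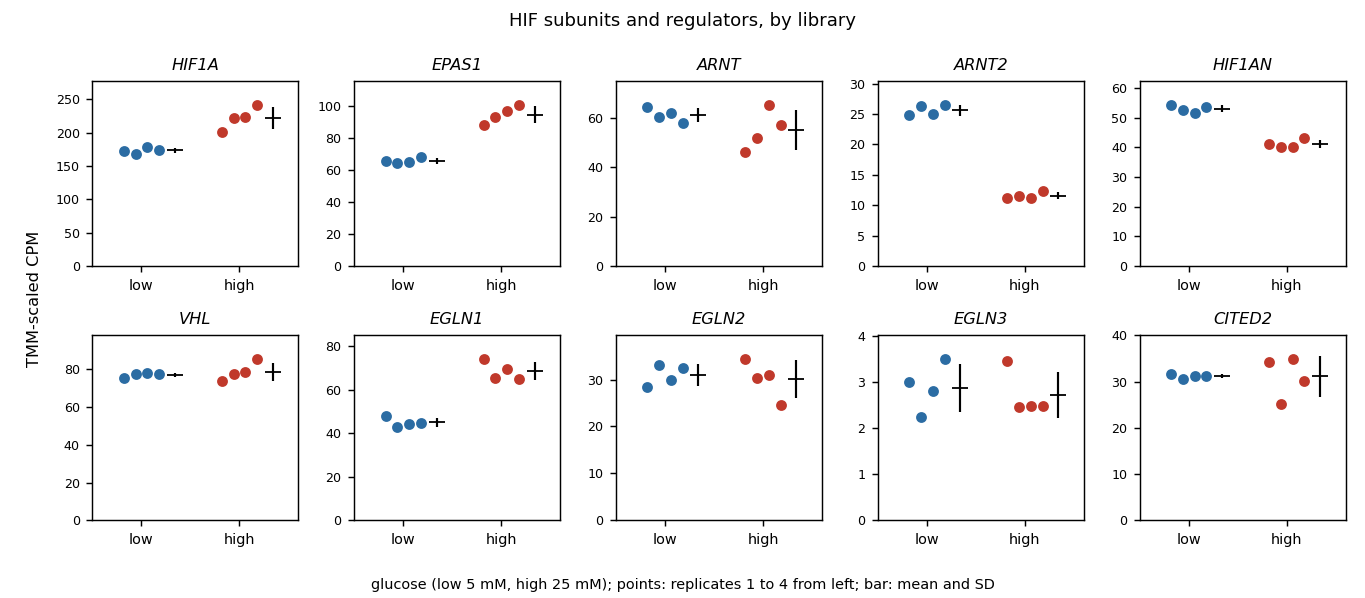
TMM-scaled CPM of HIF subunits and regulators in each library (points, replicates 1 to 4 from the left) at 5 mM (low) and 25 mM (high) glucose, with mean and SD beside them on axes that start at 0. HIF1A, EPAS1 and EGLN1 lie higher and ARNT2 and HIF1AN lower in all 4 high glucose libraries, while ARNT, VHL, EGLN2, EGLN3 and CITED2 overlap.

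Of the 6 regulators, EGLN1 rose, HIF1AN fell and 4 did not pass the test. The 33.3% that passed compares with 46.8% of all genes and 62.1% of genes with a mean of at least 1 CPM. EGLN1, the prolyl hydroxylase that sets HIF-1 alpha levels in most cells and is itself a HIF target, was at 47.7, 43.0, 44.3 and 44.8 CPM at low glucose and at 73.8, 65.4, 69.6 and 64.8 CPM at high glucose. No libraries overlapped, and the change was 0.60 ± 0.05 (adjusted p = 8.0e-05, limma). In the annotation, 69.3% of the EGLN1 transcript is overlapped by a second gene of that strand, which makes its count uncertain. HIF1AN, the asparaginyl hydroxylase also called FIH, was at 54.2, 52.5, 51.5 and 53.5 CPM at low glucose and at 41.2, 40.2, 40.2 and 43.0 CPM at high glucose. HIF1AN was lower in every high glucose library and fell by 0.36 ± 0.03 (adjusted p = 6.0e-05, limma).

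VHL, the substrate receptor of the ubiquitin ligase, was at 75.5, 77.6, 77.9 and 77.4 CPM at low glucose and at 73.9, 77.2, 78.4 and 85.1 CPM at high glucose. High glucose libraries lay on both sides of the low glucose libraries, and the change of 0.03 ± 0.04 did not pass the test (adjusted p = 0.651, limma). EGLN3, a prolyl hydroxylase that is usually a sensitive HIF target, was at 3.0, 2.24, 2.80 and 3.5 CPM at low glucose and at 3.46, 2.47, 2.47 and 2.49 CPM at high glucose. Unlike EGLN1, it overlapped between the groups, with a change of -0.06 ± 0.13 (adjusted p = 0.767, limma). EGLN2, the third hydroxylase of the family, had means of 31 and 30.0 CPM at low and high glucose and did not pass the test (adjusted p = 0.758, limma), and 95.8% of its transcript is shared with the RAB4B-EGLN2 readthrough gene. CITED2, which competes with HIF for the coactivators EP300 and CREBBP, had means of 31.2 and 31.1 CPM (adjusted p = 0.967, limma). Per kilobase, EGLN1 over EGLN2 was 0.629 to 0.816 in the low and 1.04 to 1.28 in the high glucose libraries, and EGLN3 was far below both, at 0.826 to 1.29 CPM per kb over all libraries.

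Of the 5 secreted and signaling factors, 4 rose and none fell, with a median change of 0.80. Of genes with a mean of at least 1 CPM, 29.5% rose and 32.6% fell. ADM encodes adrenomedullin, a vasodilator and angiogenic peptide. ADM was at 22.3, 21.8, 22.9 and 24.04 CPM at low glucose and at 94.7, 79.6, 79.0 and 70.5 CPM at high glucose. The lowest high glucose library was far above the highest low glucose library, and the mean was 3.55-fold higher (change 1.78 ± 0.09, adjusted p = 6.8e-06, limma). ANGPTL4, a secreted inhibitor of lipoprotein lipase that also responds to PPAR and glucocorticoid receptors, was at 0.917, 0.745, 1.10 and 0.364 CPM at low glucose and at 7.91, 6.86, 5.69 and 4.89 CPM at high glucose. It was scarce but above 3 reads in all libraries, did not overlap and was 8.09-fold higher in the mean, with a change of 2.04 ± 0.18 (adjusted p = 9.4e-05, limma), the largest rise among the members. ADM and ANGPTL4, with short transcripts of 1492 and 1872 bases, were both highest in high glucose replicate 1 and lowest in high glucose replicate 4. With the trend on transcript length removed, they changed by 1.88 and 2.12.

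VEGFA, the main angiogenic growth factor downstream of HIF, was at 45.9, 46.5, 44.3 and 49.9 CPM at low glucose and at 61.1, 60.9, 65.7 and 64.5 CPM at high glucose. All high glucose libraries were higher, by a smaller margin than for ADM, with a change of 0.43 ± 0.04 (adjusted p = 1.9e-04, limma). STC1, the glycoprotein hormone stanniocalcin 1, went from 1.44 ± 0.404 to 3.23 ± 0.489 CPM (SD, n = 4, change 0.80 ± 0.13, adjusted p = 0.00229, limma). EFNA1, a ligand of Eph receptors, had means of 9.34 and 10.7 CPM and its change of 0.18 ± 0.09 did not pass the test (adjusted p = 0.149, limma), with overlap between the groups. With the trend on transcript length removed, EFNA1 changed by 0.28 with an adjusted p of 0.0149.

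For the carbonic anhydrases, membrane enzymes that regulate pH outside the cell, no difference was detectable at this depth. CA9, often used as a tissue marker of HIF-1 activity, was at 0.0834, 0.0828, 0.0849 and 0 CPM at low glucose and at 0.141, 0.0797, 0 and 0 CPM at high glucose. All 8 values were under the floor of 3 reads, so CA9 was not detected in either group and no fold is given. In addition, 36.9% of its transcript lies opposite ARHGEF39. CA12 was detected in all libraries, with means of 2.70 CPM in both groups and a change of -0.00 ± 0.11 (adjusted p = 1, limma).

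**Figure D3:**
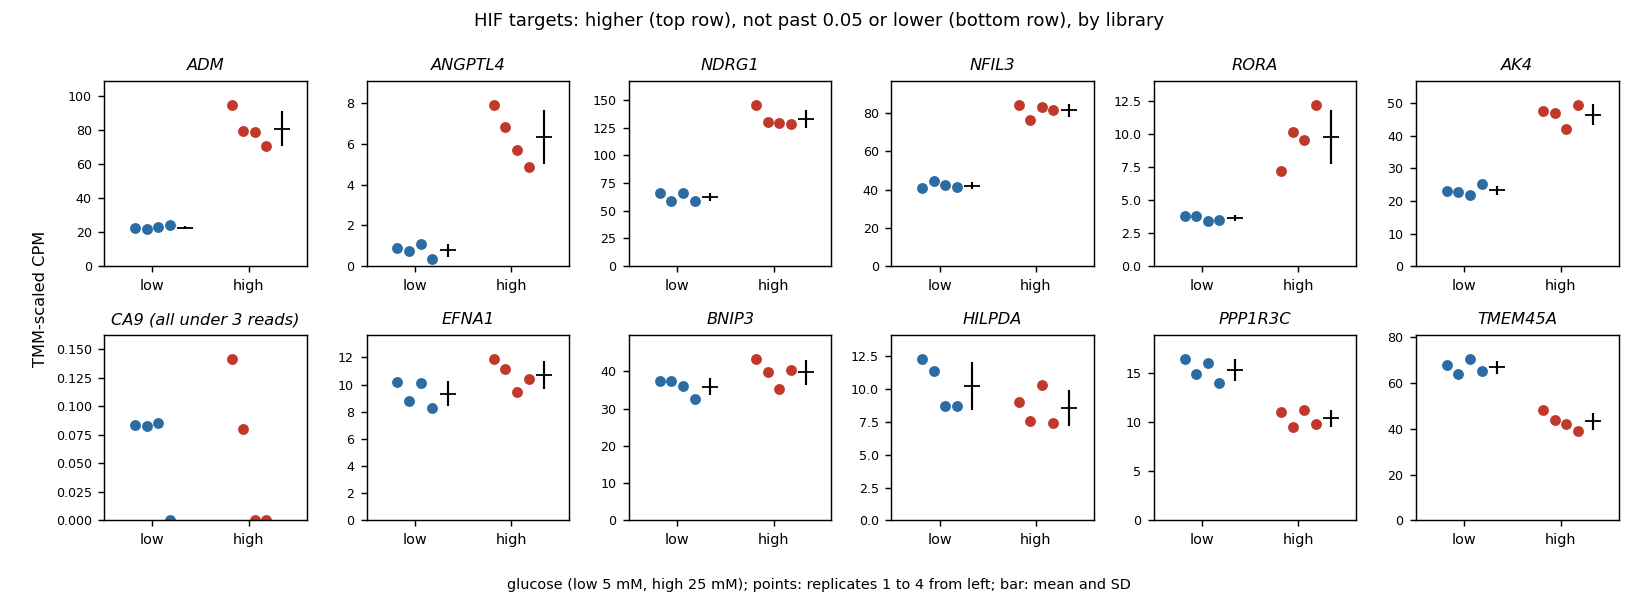
TMM-scaled CPM of 12 HIF targets in each library (points, replicates 1 to 4 from the left) by glucose group (low, 5 mM, and high, 25 mM), with mean and SD on axes that start at 0 (no mean for CA9). The 6 genes in the top row lie higher in all 4 high glucose libraries, CA9 is under 3 reads in all 8 libraries, EFNA1, BNIP3 and HILPDA overlap, and PPP1R3C and TMEM45A lie lower in all 4 high glucose libraries.

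Of the 4 members that act in mitochondria, mitophagy or nucleotide balance, AK4 rose, with a mean 2.0-fold higher, and the mitophagy receptors had changes of 0.10 and 0.14. AK4, a mitochondrial adenylate kinase, was at 23.2, 22.7, 21.9 and 25.1 CPM at low glucose and at 47.7, 46.9, 41.9 and 49.4 CPM at high glucose. The groups were well apart, with a change of 0.97 ± 0.06 (adjusted p = 1.9e-05, limma), and 19.0% of the AK4 transcript is shared with its pseudogenes. BNIP3L, a receptor that directs mitochondria to autophagy, was at 79.5, 73.1, 78.4 and 78.0 CPM at low glucose and at 83.5, 80.3, 81.7 and 85.3 CPM at high glucose. The groups did not overlap, but the lowest high and the highest low glucose library were close, and the change of 0.10 ± 0.03 was just past the threshold (adjusted p = 0.0402, limma). That call was lost in 8 of the 16 other settings.

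BNIP3, the related receptor, had means of 35.9 and 39.7 CPM and a change of 0.14 ± 0.07 that did not pass the test (adjusted p = 0.146, limma). BNIP3 shares 53.2% of its transcript with other genes, the pseudogene BNIP3P1 first among them. With the trend on transcript length removed, BNIP3 changed by 0.24 (adjusted p = 0.00371, limma), and without high glucose replicate 3 by 0.20 (adjusted p = 0.0399, limma). Per kilobase, BNIP3 and BNIP3L were at similar levels, at 21.1 to 28.1 and 21.2 to 24.7 CPM per kb over all libraries. FAM162A, a mitochondrial protein linked to cell death in hypoxia, had means of 10.4 and 11.4 CPM and did not pass the test (change 0.12 ± 0.10, adjusted p = 0.391, limma).

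Of the 5 transcription factors and corepressors, 4 rose and none fell, where 29.5% of genes with a mean of at least 1 CPM rose and 32.6% fell. BHLHE40, a repressor of the circadian clock and of differentiation also called DEC1, was at 77.3, 79.2, 76.9 and 81.3 CPM at low glucose and at 126, 127, 135 and 129 CPM at high glucose. The libraries of each group were tight and the groups far apart, with a change of 0.71 ± 0.03 (adjusted p = 3.7e-06, limma). NFIL3, a basic leucine zipper repressor of clock and immune genes, was at 40.6, 44.5, 42.1 and 41.2 CPM at low glucose and at 84.0, 76.2, 83.3 and 81.6 CPM at high glucose. It was 1.93-fold higher in the mean without overlap (change 0.93 ± 0.04, adjusted p = 4.6e-06, limma).

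RORA, a nuclear receptor that activates clock genes, was at 3.83, 3.81, 3.40 and 3.5 CPM at low glucose and at 7.20, 10.1, 9.57 and 12.2 CPM at high glucose. Every high glucose library was higher, and high glucose replicate 1, in which long transcripts read low, was the lowest of them. The RORA transcript is 10827 bases long, and its change was 1.2 ± 0.14 (adjusted p = 4.1e-04, limma). With the trend on transcript length removed, RORA changed by 1.21. SAP30, a subunit of the Sin3A histone deacetylase complex, went from 12.1 ± 1.47 to 19.8 ± 3.83 CPM (SD, n = 4, change 0.66 ± 0.15, adjusted p = 0.00793, limma), and 15.3% of its transcript is shared with a pseudogene. BHLHE41, the paralog of BHLHE40 also called DEC2, had means of 2.91 and 2.76 CPM and its change of -0.05 ± 0.09 did not pass the test (adjusted p = 0.684, limma).

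**Figure D4:**
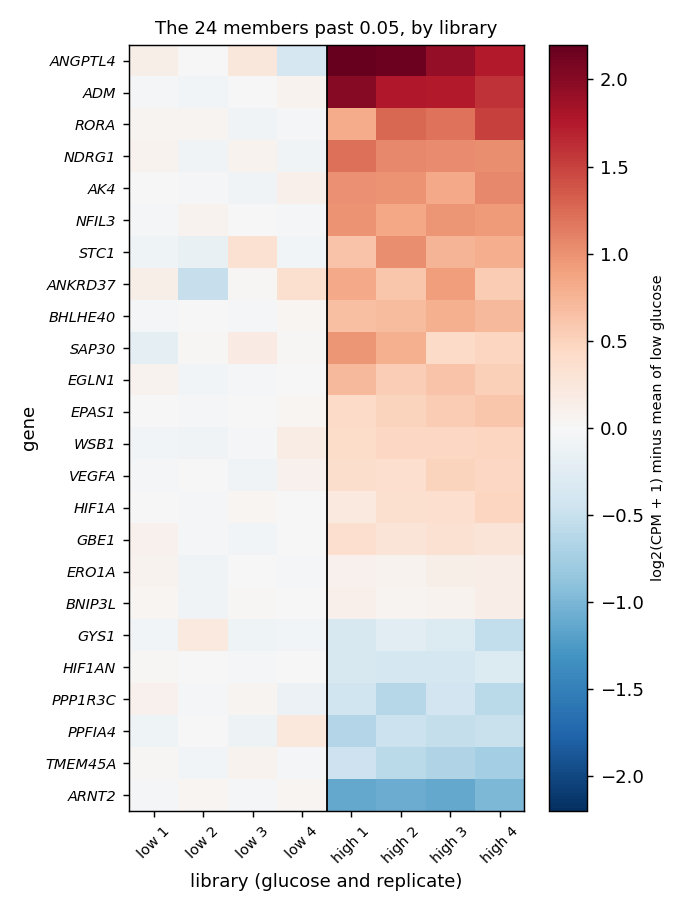
Difference of each library from the mean of the 4 low glucose libraries, as log2(CPM + 1) in colour, for the 24 members that passed the test, ordered by change, with low glucose replicates at left and high glucose replicates at right. The 18 members that rose and the 6 that fell separate by glucose, and ERO1A is the member whose groups overlap.

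The storage genes were split. GYS1, the muscle-type glycogen synthase, was at 20.5, 24.8, 19.9 and 20.4 CPM at low glucose and at 16.5, 18.1, 17.2 and 14.3 CPM at high glucose. Its groups did not overlap, and it fell by 0.35 ± 0.09 on the log2 scale (adjusted p = 0.0171, limma). GBE1, the glycogen branching enzyme, was at 20.8, 19.0, 18.7 and 19.4 CPM at low glucose and at 25.6, 23.99, 25.0 and 23.9 CPM at high glucose. GBE1 thus moved opposite to GYS1, without overlap, with a change of 0.32 ± 0.04 (adjusted p = 6.1e-04, limma). Per kilobase, GBE1 over GYS1 was 0.933 to 1.23 in the low and 1.61 to 2.03 in the high glucose libraries.

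PPP1R3C, a targeting subunit that brings protein phosphatase 1 to glycogen and favours its synthesis, was at 16.4, 14.9, 16.1 and 14.0 CPM at low glucose and at 11.01, 9.57, 11.2 and 9.78 CPM at high glucose. It was lower in every high glucose library and fell by 0.52 ± 0.07 (adjusted p = 9.3e-04, limma). So at high glucose the synthase and the targeting subunit were lower and the branching enzyme was higher. HILPDA, a lipid droplet protein that inhibits triglyceride breakdown, had means of 10.2 and 8.56 CPM with overlap (change -0.23 ± 0.15, adjusted p = 0.255, limma), and 24.6% of its transcript is shared with other genes.

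All 6 other targets passed the test, with 4 that rose and 2 that fell. Of genes with a mean of at least 1 CPM, 62.1% passed, 29.5% higher and 32.6% lower. NDRG1, a stress-responsive protein tied to differentiation and metastasis, was at 65.9, 58.9, 65.7 and 59.0 CPM at low glucose and at 145, 130.01, 129 and 128 CPM at high glucose. It was 2.13-fold higher in the mean with no overlap (change 1.08 ± 0.06, adjusted p = 1.0e-05, limma), and 24.9% of its transcript lies under another gene of the same strand. WSB1, a substrate adaptor of a ubiquitin ligase, was at 78.6, 77.6, 80.3 and 92.4 CPM at low glucose and at 109, 113, 113 and 114 CPM at high glucose. Low glucose replicate 4 was above its group but below all high glucose libraries, and the change was 0.45 ± 0.06 (adjusted p = 5.2e-04, limma).

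TMEM45A, a transmembrane protein of the secretory pathway, was at 67.8, 64.0, 70.3 and 65.4 CPM at low glucose and at 48.2, 43.9, 41.9 and 39.2 CPM at high glucose. It moved against NDRG1 and WSB1, without overlap, and fell by 0.62 ± 0.06 (adjusted p = 2.1e-04, limma). PPFIA4, a liprin-family scaffold protein, fell from 11.3 ± 1.38 to 7.43 ± 0.456 CPM (SD, n = 4, change -0.54 ± 0.09, adjusted p = 0.00205, limma). ANKRD37, an ankyrin-repeat protein, rose from 1.66 ± 0.629 to 3.34 ± 0.526 CPM (SD, n = 4, change 0.73 ± 0.19, adjusted p = 0.0174, limma), and 54.7% of its transcript lies opposite UFSP2. ERO1A, the oxidase that forms disulfide bonds in the endoplasmic reticulum, had means of 46.0 and 49.6 CPM and a change of 0.11 ± 0.04 (adjusted p = 0.0434, limma). ERO1A is the member that passed the test although its groups overlapped, low glucose replicate 1 at 48.8 CPM being above high glucose replicate 2 at 48.3 CPM, and its call was lost in 11 of the 16 other settings.

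Across the 24 members that passed the test, high glucose replicate 1 was the highest of the high glucose libraries for 8 and the lowest for 7, and high glucose replicate 4 was the highest for 9 and the lowest for 8. With the trend on transcript length removed, 9885 genes passed, and 19 members rose and 6 fell. That fit kept only genes with a mean of at least 1 CPM. Without high glucose replicate 1, 10156 genes passed, and 16 members rose and 6 fell. In the reported fit 9849 genes passed, and 18 members rose and 6 fell.

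Of 27 further genes of the HIF machinery (cofactors, ligase subunits, chaperones and metabolic enzymes among them), 26 were in the table, 11 rose (42.3%) and 5 fell (19.2%), with a median change of 0.07. The 61.5% that passed the test was at the level of all genes with a mean of at least 1 CPM, of which 62.1% passed, 29.5% higher and 32.6% lower. The 4 with the smallest adjusted p were MCM7, a replicative helicase subunit that can bind HIF1A (change 0.62 ± 0.04), HSP90AA1, the chaperone that stabilizes HIF1A (0.73 ± 0.06), IDH1, which makes 2-oxoglutarate (-0.58 ± 0.05), and ELOC, the elongin C subunit of the VHL ligase (0.67 ± 0.07). Of these, ELOC had the largest adjusted p (2.1e-04, limma). ELOC is a partner of VHL, whose own transcript did not pass the test. The other listed subunits of that ligase, ELOB (change -0.05 ± 0.20), CUL2 (-0.01 ± 0.04) and RBX1 (-0.09 ± 0.15), did not pass it either. They were named after their values were seen.

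Of 21 HIF targets in glycolysis and glucose uptake, 12 rose (57.1%) and 1 fell (4.8%), with a median change of 0.31. The 61.9% that passed was again at the level of expressed genes (62.1%, with 29.5% higher and 32.6% lower), and of the members 50% rose and 16.7% fell. HK2, hexokinase 2, went from 34.8 to 72.4 CPM in the mean (change 1.03 ± 0.03, adjusted p = 9.9e-07, limma), and LDHA, lactate dehydrogenase A, from 546 to 933 CPM (change 0.77 ± 0.03, adjusted p = 4.8e-06, limma). PFKFB3, which makes the activator of phosphofructokinase, changed by 0.53 ± 0.04 and PFKP, the platelet phosphofructokinase, by 0.23 ± 0.02. The gene of this list that fell was PFKL, the liver phosphofructokinase, named after its values were seen. PFKL went from 118 ± 7.46 to 56.7 ± 8.04 CPM (SD, n = 4, change -1.05 ± 0.11, adjusted p = 1.8e-04, limma). PFKFB2, of the PFKFB3 family and likewise named afterwards, was counted in the list of other HIF targets described last and changed by -0.28 ± 0.04. The numbers that rose and fell in the lists were not tested against each other, and the lists were chosen with earlier results of these data known.

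**Figure D5:**
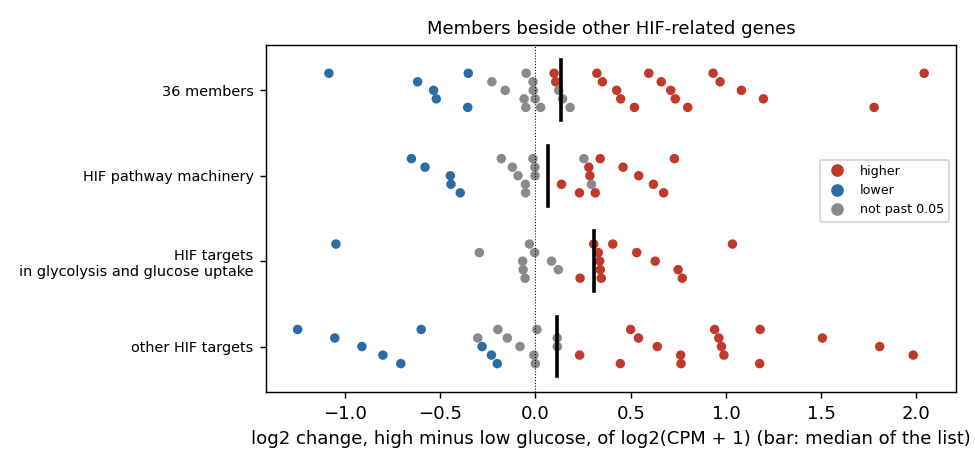
Log2 change (high minus low glucose, of log2(CPM + 1)) of each gene (points, coloured by the test at an adjusted p of 0.05) in the 36 members and in 3 other HIF-related lists, with the median of each list as a bar. The medians are 0.13 for the members, 0.07 for the machinery, 0.31 for the glycolytic and uptake targets and 0.11 for the other targets, and every list holds genes on both sides of 0.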

How the data were processed

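RNA of 8 MDA-MB-157 libraries, 4 at 5 mM and 4 at 25 mM glucose, was sequenced, and groups and replicate numbers were taken from the labels. The deposited values are counts per 1000000 reads (CPM) that the authors scaled with TMM factors from edgeR. Per the labels the build is hg38. The study's methods describe trimming, alignment with TopHat to hg19 and an Ensembl annotation for tumors and, by reference, xenografts, and for these cell line libraries the aligner, annotation release, counting tool and its use of strand are not given in the sources used here. Low values lay on steps of 1 read, but within a tolerance of 0.01 read only 72.2% to 74.0% of values below 200 reads were whole, so that whole reads were not recovered and no count test was run. The depth of each library is its column sum over that step, 9722000 to 12483000 reads. Depths and the floor of 3 reads cover counting error only.

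Of 21077 lines, 18 pseudoautosomal Y copies identical to their X copies were left out, and all other genes, 856 of them at 0 in every library, were fitted as log2(CPM + 1) with limma 3.58.1 in R 4.3.3 (lmFit and eBayes, trend = TRUE, no covariates, tests 2-sided), with Benjamini-Hochberg adjustment over 21059 genes. Transcript lengths, overlaps and shared sequence (31-base words) are from GENCODE on GRCh37 and describe the annotation, not the alignment, and promoter sequences are from RefSeq.

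Members and lists were chosen with earlier results of these data known. All members are named; values in every library are given for HIF1A, EPAS1, ARNT, EGLN1, EGLN3, VHL, HIF1AN, VEGFA and CA9 and, per role group, for the 3 members with the smallest adjusted p among those under 0.05 with a mean of at least 1 CPM. In each other pathway list the 4 genes with the smallest adjusted p and a mean of at least 5 CPM are named. Genes of these lists whose changes are given beyond that were named after their values were seen. Lists are described by counts and medians. Same-numbered libraries did not deviate together (correlations of 0.07, -0.03, 0.01 and -0.04).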

Additional observations from a re-analysis of the deposited data

Results flagged for a closer look

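In groups of 4 libraries, the gap of the highest or lowest library to its nearest neighbour was taken as a share of the whole range and compared with Dixon's critical value at the 95% level. Chance flags about 5% of groups, or 3.7 of the 74 examined, and 6 were past it. EGLN3 at high glucose had 1 library above the others (replicate 1, 0.982), as did NDRG1 at high glucose (replicate 1, 0.877) and GYS1 at low glucose (replicate 2, 0.871). CA9 at low glucose had 1 library below the others (replicate 4, 0.975), at 0 reads and with all values under 3 reads. WSB1 at high glucose had 1 library below the others (replicate 1, 0.865). The reads in the table of low glucose replicate 4 were above those of the other low glucose libraries (0.864).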

How the results depend on the processing

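Over 16 settings besides the one reported, 8120 to 10156 genes passed the test, 13 to 19 members rose, and 6 to 7 fell. The lowest counts, 8120 genes and 13 members that rose, came from fitting only genes with a mean of at least 5 CPM. ANGPTL4, STC1 and ANKRD37, which rose in the reported fit, had no value there. In the 13 settings that can change it, the number of members without overlap was 20 to 26. Leaving out 1 library gave 16 to 18 members that rose and 6 to 7 that fell. Of the 24 members that passed, none reversed and 21 passed in every setting that gave a value; BNIP3L lost its call in 8, ERO1A in 11 and SAP30 in 1. The libraries share only a number between groups, and with the replicate number as a block 8921 genes passed, 16 members rose and 6 fell, 13 machinery genes, 11 glycolytic targets and 24 other targets passed, and SAP30 (adjusted p = 0.0506, limma) and ERO1A (adjusted p = 0.0704, limma) lost their calls. Of the 8 libraries, 2 correlated best with their own number.

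Of 567 single member values, 525 kept direction and side of the threshold, and 4 gained a call: ARNT, EFNA1 and BNIP3, given above. Reversals came in members that did not pass, and their cause was not tested. The length trend removed gave 0.0163 for EGLN2 and 0.0354 for CITED2, median-of-ratios scaling 0.0282 for CITED2 and 0.0291 for CA12, and equal totals 0.0111 for CITED2 and 0.0166 for CA12. Leaving out 1 library gave -0.0113 (without high glucose replicate 4) to 0.0560 for VHL, -0.1139 to 0.0420 for EGLN2, -0.1493 to 0.0140 for EGLN3, -0.0692 to 0.0812 for CITED2, -0.0501 to 0.0134 for CA9, -0.0722 to 0.0495 for CA12 and -0.0928 to 0.0107 for BHLHE41. At this depth CA9 could not be measured, and changes of members near 1 CPM are understated by the pseudocount of 1.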

Other observations

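A further list held 35 HIF targets outside the members and the glycolytic list, and 34 were in the table. Of these, 16 rose (47.1%) and 9 fell (26.5%), with a median change of 0.11. PFKFB2, of the same enzyme family as PFKFB3, was placed here and fell (change -0.28 ± 0.04, adjusted p = 8.8e-04, limma). It was named after its values were seen. Of the 34, 5 rose and 2 fell by at least 1 on the log2 scale. Of genes with a mean of at least 1 CPM, 3.32% and 3.58% did. The 2 that fell so far were DDIT4 (change -1.25 ± 0.07, adjusted p = 1.6e-05, limma) and KDELR3 (-1.05 ± 0.07, adjusted p = 2.7e-05, limma), likewise named afterwards. The 73.5% that passed compares with 46.8% of all genes and 62.1% of genes with a mean of at least 1 CPM. IGFBP3, an insulin-like growth factor binding protein, went from 70.8 ± 1.23 to 283 ± 8.13 CPM in the mean (SD, n = 4), a change of 1.98 ± 0.02 (adjusted p = 1.6e-07, limma). JMJD6, a 2-oxoglutarate-dependent hydroxylase, went from 56.4 ± 1.55 to 129 ± 4.41 CPM (change 1.18 ± 0.03, adjusted p = 9.9e-07, limma), and TFRC, the transferrin receptor, from 230.1 ± 2.78 to 391 ± 15.0 CPM (change 0.76 ± 0.03, adjusted p = 3.3e-06, limma). PLOD1, a lysyl hydroxylase of collagen, fell from 311 ± 6.35 to 190.3 ± 7.18 CPM (change -0.71 ± 0.03, adjusted p = 4.6e-06, limma).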
